A study of Homo sapiens with 6 samples.

Results

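Hyaluronan synthesis, binding and breakdown was described through 9 genes. They were taken from the deposited count table by symbol: the synthases *HAS1*, *HAS2* and *HAS3*, the hyaluronan-binding proteins *CD44* and *TNFAIP6*, and the breakdown genes *HYAL1*, *HYAL2*, *HYAL3* and *CEMIP*. The table holds 60663 genes, and 8 of the 9 were among the 16920 that passed a filter on low counts, *HAS1* being the exception. Total RNA was measured in 6 libraries of CCD18Co, an established line of fibroblasts from normal human colon. In 3 libraries (siLTBP2) the cells had received an siRNA product against *LTBP2*, a secreted protein of the extracellular matrix, and in the 3 control libraries (siNT) a non-targeting siRNA pool. Both groups were transfected for 6 h by lipofection and collected at 48 h, in the same serum-containing medium. There was 1 cell line and 1 siRNA product against *LTBP2*, with no other, independent product and no rescue. The libraries of a group are numbered 1 to 3, and the labels do not say whether they came from separate cultures, so the p-values measure the spread between these libraries, which may be technical.

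Hyaluronan is a long, unsulfated sugar chain of the extracellular matrix, built from glucuronic acid and *N*-acetylglucosamine. Synthases in the plasma membrane join the activated sugars and push the growing chain out of the cell, where receptors such as CD44 hold it and proteins such as TSG-6, the product of *TNFAIP6*, modify it. Breakdown starts outside the cell or at its surface, and the fragments are digested in lysosomes. Fibroblasts are a main source of hyaluronan in connective tissue, including that of the gut wall.

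Of the 8 tested members, *HAS2* and *TNFAIP6* rose in siLTBP2, *CD44* and *CEMIP* fell, and *HAS3*, *HYAL1*, *HYAL2* and *HYAL3* did not pass the test. Log2 fold changes are given with their standard error (SE) and adjusted p. The test was edgeR's quasi-likelihood test over all 16920 genes, and a gene is said to have risen or fallen where its Benjamini-Hochberg adjusted p was below 0.05. By this rule 9.76% of all tested genes rose and 9.51% fell. The stricter thresholds of the study, more than 2-fold with an adjusted p below 0.01, define the deregulated genes. These were *HAS2* (higher, as 1.29% of tested genes were) and *CEMIP* (lower, as 1.27% were). In 5 of the 8 members the ranges of the groups did not overlap, against 37.0% of all tested genes. In bulk RNA, fewer cells that express a gene and less RNA of that gene per cell cannot be told apart.

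Each library had between 44663424 and 53576899 reads counted on genes. The targeted gene, *LTBP2*, was at 25.0, 23.1 and 21.2 CPM (read counts scaled to library size with TMM normalization) in siNT and at 6.49, 8.61 and 6.00 CPM in siLTBP2, so its knockdown followed the labels. All 9 fibroblast markers examined, among them *COL1A1* and *VIM*, were detected, with summed levels of 9628 to 12786 CPM in siNT and 9754 to 13770 CPM in siLTBP2, and of these *PDGFRB* fell. Of 5 epithelial markers, which summed to between 40.1 and 52.4 CPM in siNT and between 85.4 and 99.1 CPM in siLTBP2, *KRT18* rose, and the defining members *EPCAM*, *CDH1* and *KRT20* were at or near 0. Of 4 smooth muscle markers, which summed to between 39.9 and 41.9 CPM in siNT and between 53.2 and 71.9 CPM in siLTBP2, *ACTG2* rose, and *DES*, *MYH11* and *CNN1* were near 0. Endothelial markers summed to at most 2.03 CPM and leukocyte markers to at most 0.359 CPM in any library. Of 6 proliferation genes 5 rose, against 9.76% of all tested genes. These 6 summed to between 1077 and 1159 CPM in siNT and between 1523 and 1652 CPM in siLTBP2. Their part in the hyaluronan genes was not tested.

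The promoter windows of 3 of the 4 members that passed the test are shown, because *CD44* and *CEMIP* fell while *TNFAIP6* rose. The windows, from RefSeq on GRCh38.p14, run from 250 bases before to 50 bases after the RefSeq start, on the plus strand in each case: chr11:35138921-35139220 for *CD44*, chr15:80779120-80779419 for *CEMIP* and chr2:151357342-151357641 for *TNFAIP6*. Capitals mark matches to 3 short motifs, searched on both strands: the TATA box (TATAAA), the GC box (GGGCGG) and the AP-1 site (TGANTCA). No matches overlap. The RefSeq start of *TNFAIP6* is also the start of its gene in GENCODE 44. Those of *CD44* (35139171) and *CEMIP* (80779370) lie 289 and 27 bases downstream of the GENCODE 44 gene starts, so the window of *CD44* is wholly inside the gene as GENCODE 44 annotates it. The window of *HAS2* is not shown.

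CD44: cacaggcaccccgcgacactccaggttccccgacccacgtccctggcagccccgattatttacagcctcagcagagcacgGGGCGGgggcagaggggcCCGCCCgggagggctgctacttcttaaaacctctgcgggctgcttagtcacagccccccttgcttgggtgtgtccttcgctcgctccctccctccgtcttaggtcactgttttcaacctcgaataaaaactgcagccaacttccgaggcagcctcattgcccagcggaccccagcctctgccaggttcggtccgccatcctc

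CEMIP: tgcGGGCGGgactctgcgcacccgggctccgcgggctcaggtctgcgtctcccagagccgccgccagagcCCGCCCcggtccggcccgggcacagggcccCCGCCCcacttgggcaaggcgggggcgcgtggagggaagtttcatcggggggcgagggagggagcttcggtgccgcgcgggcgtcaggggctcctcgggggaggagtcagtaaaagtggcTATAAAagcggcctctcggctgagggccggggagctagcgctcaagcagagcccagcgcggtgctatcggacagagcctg

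TNFAIP6: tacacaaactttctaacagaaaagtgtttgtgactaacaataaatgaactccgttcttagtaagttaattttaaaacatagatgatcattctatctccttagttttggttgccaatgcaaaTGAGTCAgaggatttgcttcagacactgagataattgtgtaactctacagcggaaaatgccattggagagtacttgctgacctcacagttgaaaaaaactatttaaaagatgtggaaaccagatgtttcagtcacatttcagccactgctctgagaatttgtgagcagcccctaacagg

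The window of *CEMIP* held 3 GC boxes and a TATA box that begins 30 bases before the RefSeq start, and that of *CD44* held 2 GC boxes. In the window of *TNFAIP6* the only match was an AP-1 site 129 bases before the RefSeq start. Its base composition differed too, with 37% G and C against 73% for *CEMIP* and 63.3% for *CD44*. Members that did not pass or were not tested held GC boxes too: *HAS1* (1), *HAS3* (1), *HYAL1* (2) and *HYAL3* (2 in each of its windows). The window of *HYAL2* held no GC box. Over all 35116 promoter windows of the table, 45% held the GC box, 11.5% the TATA box and 7.71% the AP-1 site. These are matches of letters, and binding of a factor was not measured.

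The synthases were led by *HAS2*, which makes long hyaluronan chains and is the main synthase of most fibroblasts. Its gene (ENSG00000170961) occupies 121612116 to 121641440 of chromosome 8 in GRCh38, on the minus strand. Its level was 8.995, 7.31 and 8.46 CPM in siNT replicates 1 to 3 and 23.7, 26.7 and 37.8 CPM in siLTBP2. Every siLTBP2 library was above every siNT library, and siLTBP2 replicate 3 was the highest. The means were 8.25 ± 0.86 and 29.4 ± 7.43 CPM (SD, n = 3), a 3.57-fold rise, with a log2 fold change of 1.83 (SE 0.17, adjusted p = 9.9e-05). With replicate 3 of siLTBP2 left out the log2 fold change was 1.61. By size of log2 fold change *HAS2* ranked 69 from the top of the 16920 genes. An exact permutation test over the libraries gave p = 0.1, two-sided, which is the smallest that 3 against 3 allow, as it did for *TNFAIP6*, *CD44*, *CEMIP* and *HYAL2*.

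An antisense transcript, *HAS2-AS1*, overlaps *HAS2* on the opposite strand across 5.92% of its exon length. It had 48, 57 and 65 reads in siNT and 57, 53 and 60 in siLTBP2, a log2 fold change of 0.07 (SE 0.21, adjusted p = 0.86). *HAS2* itself had 361 to 456 reads in siNT and 1034 to 1993 in siLTBP2, so the reads of *HAS2-AS1* were few beside them.

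*HAS3* (ENSG00000103044, plus strand, chromosome 16, 69105653 to 69118719), a synthase known for shorter chains, was low. It had 1.66, 1.56 and 1.63 CPM in siNT and 1.49, 1.42 and 2.45 CPM in siLTBP2. The groups overlapped, with siLTBP2 replicate 3 above and the other siLTBP2 libraries below all siNT libraries. Its log2 fold change was 0.15 (SE 0.24, adjusted p = 0.72), and -0.15 without siLTBP2 replicate 3, so no direction was resolved. *CHTF8*, on the other strand with 365 shared exon bases, had a log2 fold change of 0.49 (SE 0.28, adjusted p = 0.25). *HAS1* (ENSG00000105509, minus strand, chromosome 19, 51713112 to 51723991) had 1 read in siLTBP2 replicate 1 and 0 in the other 5 libraries. A count of 0 allows up to 3 reads, which is between 0.0556 and 0.0649 CPM in those 5 libraries, by counting error only.

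**Figure D1:**
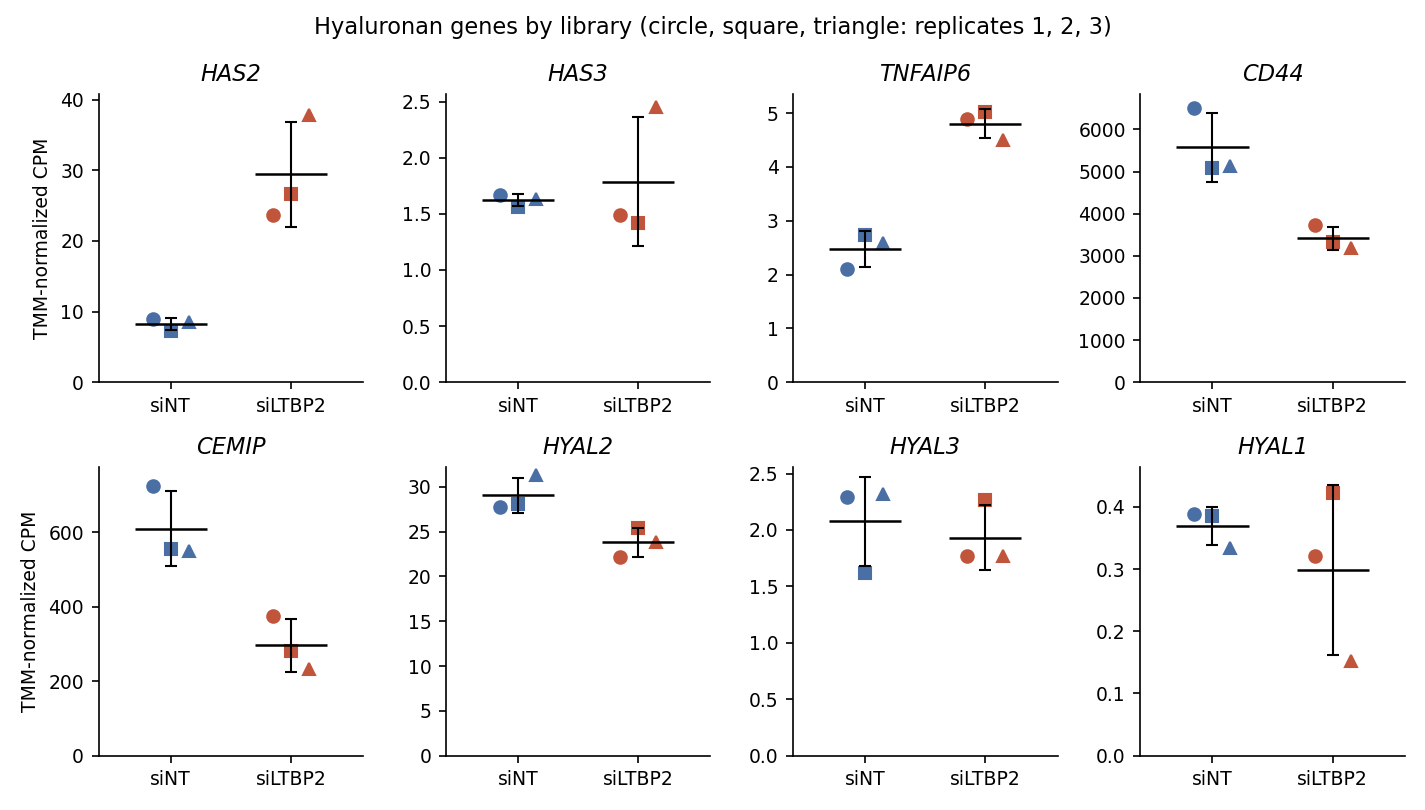
TMM-normalized CPM (y axis, linear from 0) of the 8 tested hyaluronan genes in the 3 siNT (blue) and 3 siLTBP2 (red) libraries. Circles, squares and triangles are replicates 1 to 3, lines are means and bars are 1 SD. *HAS2* and *TNFAIP6* lie higher and *CD44*, *CEMIP* and *HYAL2* lower in every siLTBP2 library, while *HAS3*, *HYAL3* and *HYAL1* overlap.

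Levels of different genes were compared per kilobase of exon in GENCODE 44, as means of the 3 libraries. Among the synthases, *HAS2* made up 86.9%, 85.2% and 86.4% of the summed level per kilobase in siNT and 95.0%, 95.9% and 95.0% in siLTBP2. The level of *HAS2* was 6.24 ± 0.45 times that of *HAS3* in siNT and 20.5 ± 2.25 times in siLTBP2 (SD, n = 3). With the longest transcript as the length, the share of *HAS2* was 83.5% in siNT and 94.2% in siLTBP2.

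Across all members, *CD44* was by far the most abundant, at 558 ± 81.6 CPM per kilobase in siNT (SD, n = 3), and *CEMIP* followed at 79.9 ± 13.1. Next came *HYAL2* at 6.57 ± 0.44, *HAS2* at 1.95 ± 0.20, *TNFAIP6* at 1.57 ± 0.21, *HYAL3* at 1.06 ± 0.20, *HAS3* at 0.311 ± 0.010 and *HYAL1* at 0.120 ± 0.010 CPM per kilobase (SD, n = 3). The ranges of *HAS2* (1.72 to 2.12) and *TNFAIP6* (1.33 to 1.73) touched in siNT, so this pair did not differ beyond its spread. In siLTBP2 *HAS2* reached 6.94 ± 1.75 CPM per kilobase and *HYAL2* was at 5.39 ± 0.37 (SD, n = 3), with ranges of 5.60 to 8.92 and 5.02 to 5.75 that overlapped between libraries. Within each library, however, *HAS2* was below *HYAL2* in siNT and above it in siLTBP2. The other neighbours kept their order of means.

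**Figure D2:**
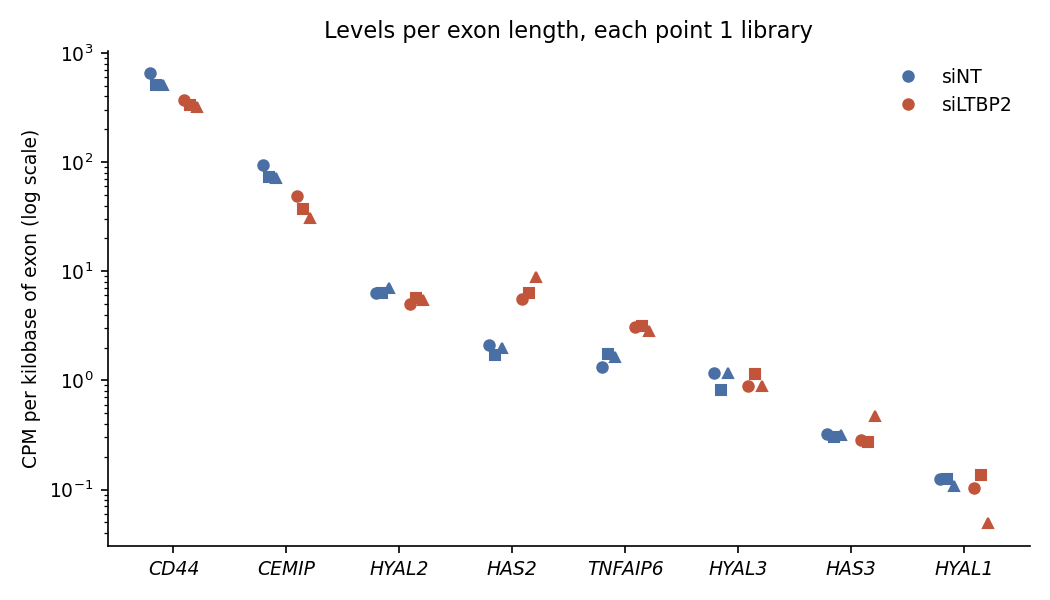
Level per exon length (CPM per kilobase, log scale) of the 8 tested members, ordered by their siNT mean, with 1 point per library (blue siNT, red siLTBP2, and circle, square and triangle for replicates 1 to 3). *CD44* and *CEMIP* lie well above the other members in both groups, and *HAS2* lies below *HYAL2* in each siNT library and above it in each siLTBP2 library.

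The main cell surface receptor for hyaluronan is *CD44* (ENSG00000026508), which lies on the plus strand of chromosome 11, from 35138882 to 35232402, with 18 exons in its canonical transcript. It ranked 5 by CPM among all tested genes in siNT and 27 per kilobase. Its level was 6517, 5078 and 5132 CPM in siNT and 3730, 3325 and 3194 CPM in siLTBP2. The highest siLTBP2 library stayed under the lowest siNT library, and siNT replicate 1 was the highest of all. The means were 5575 ± 816 and 3416 ± 280 CPM (SD, n = 3), 1.63-fold lower in siLTBP2, with a log2 fold change of -0.71 (SE 0.13, adjusted p = 0.0046). The change was under 2-fold, so *CD44* was not deregulated. It took between 0.516% and 0.642% of all counts in siNT and between 0.317% and 0.364% in siLTBP2. The counts are per gene, so the splice forms of *CD44*, which differ in their variable exons, were not resolved.

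Non-coding transcripts annotated within or across *CD44* were also counted. ENSG00000251194, on the same strand and without shared exon bases, went from 12.8 ± 3.28 to 6.16 ± 0.45 CPM (SD, n = 3), a log2 fold change of -1.06 (adjusted p = 0.0022). ENSG00000255521, on the opposite strand with 70 shared exon bases, went from 1.34 ± 0.36 to 0.587 ± 0.035 CPM (SD, n = 3), with a log2 fold change of -1.19 (adjusted p = 0.0097). *CD44-AS1* had a log2 fold change of -0.57 (SE 0.28, adjusted p = 0.20). Without the strand setting of the counting, which is not given in the sources used here, reads of such transcripts and of *CD44* itself cannot be fully told apart.

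TSG-6, the secreted product of *TNFAIP6* (ENSG00000123610), binds hyaluronan and transfers protein heavy chains onto it, and is known to be induced in inflammation. The gene lies on the plus strand of chromosome 2, from 151357592 to 151380046. Its level was 2.10, 2.73 and 2.58 CPM in siNT and 4.89, 5.01 and 4.50 CPM in siLTBP2, from 97 to 139 and 213 to 237 reads. No siLTBP2 library came near the siNT range. The means were 2.47 ± 0.33 and 4.80 ± 0.27 CPM (SD, n = 3), a 1.94-fold rise, with a log2 fold change of 0.96 (SE 0.16, adjusted p = 0.0027). This lies just under the 2-fold threshold, and without siNT replicate 2 the log2 fold change was 1.03, so that it was then deregulated, as it was without siLTBP2 replicate 3.

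Among the breakdown genes, *CEMIP* (ENSG00000103888), whose product binds hyaluronan and is needed for its depolymerisation by skin fibroblasts, was the most abundant and the only one to pass the test. It lies on the plus strand of chromosome 15, from 80779343 to 80951776, with 30 exons in its canonical transcript. Its level was 725, 555 and 548 CPM in siNT and 373, 282 and 232 CPM in siLTBP2. All siLTBP2 libraries were below all siNT libraries, and replicate 1 was the highest of each group. The means were 609 ± 99.97 and 296 ± 71.7 CPM (SD, n = 3), 2.06-fold lower in siLTBP2, with a log2 fold change of -1.04 (SE 0.17, adjusted p = 0.0021). *CEMIP* was no longer deregulated without siNT replicate 1 (log2 fold change -0.91) or siLTBP2 replicate 3 (-0.89), nor without siLTBP2 replicate 2 (-1.02), where the adjusted p was 0.013. It fell in each of these fits. *MESD*, which overlaps *CEMIP* on the other strand with 224 shared exon bases, moved the opposite way, with a log2 fold change of 0.30 (adjusted p = 0.031).

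The hyaluronidases are enzymes that cut the chain, and the member genes *HYAL1*, *HYAL2* and *HYAL3* lie near each other on the minus strand of chromosome 3. *HYAL2* (ENSG00000068001, 50317790 to 50322782), which encodes an enzyme anchored to the cell surface, was the most abundant of them. It had 27.7, 28.1 and 31.3 CPM in siNT and 22.2, 25.4 and 23.9 CPM in siLTBP2. The groups did not overlap, and the log2 fold change was -0.29 (SE 0.10), but the adjusted p of 0.068 did not pass. It passed under 4 alternatives that are given with the processing. *HYAL2* shares 509 exon bases, 11.5% of its length, with *TUSC2* on the same strand, whose log2 fold change was -0.22 (adjusted p = 0.14).

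*HYAL1* (ENSG00000114378, 50299890 to 50312381), the lysosomal hyaluronidase, had only 18, 19 and 18 reads in siNT and 14, 20 and 8 in siLTBP2. Its groups overlapped, and its log2 fold change of -0.32 had an SE of 0.39 (adjusted p = 0.62), the largest among the members, so that a difference was not detectable at this depth. *HYAL3* (ENSG00000186792, 50292831 to 50299405), a related gene, had 2.29, 1.62 and 2.32 CPM in siNT and 1.77, 2.26 and 1.76 CPM in siLTBP2, with overlapping groups and a log2 fold change of -0.11 (SE 0.21, adjusted p = 0.78). It shares 232 exon bases with *NAA80* on the same strand, 11.8% of its length. *IFRD2*, which shares 43 bases with it, fell (log2 fold change -0.53, adjusted p = 0.015). Per kilobase, *HYAL2* made up 84.9% ± 2.06 of the 3 hyaluronidases in siNT and 83.4% ± 1.69 in siLTBP2 (SD, n = 3), a difference within the spread of the libraries.

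*HAS2* rose and *CEMIP* fell without overlap of the groups. Their ratio therefore had to be higher in every siLTBP2 library than in any siNT library, and only its size is described here. Per kilobase, the ratio of *HAS2* to *CEMIP* was 0.0223, 0.0237 and 0.0277 in siNT and 0.114, 0.170 and 0.293 in siLTBP2. The siLTBP2 ratios were all above the siNT ratios and spread over a wider range. *CD44* and *CEMIP* both fell, and the ratio of *CD44* to *CEMIP* was 6.86, 6.98 and 7.14 in siNT and 7.62, 8.99 and 10.5 in siLTBP2. The ratio was higher in each siLTBP2 library, the fall of *CEMIP* being the larger.

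The rest of the pathway was followed through 39 further genes in 6 lists, of which 23 were tested. Of these, 10 rose and 2 fell, against 9.76% and 9.51% of all tested genes. The 3 deregulated were *GFPT2* and *CEMIP2* (higher, as 1.29% of tested genes were) and *AMBP* (lower, as 1.27% were). The same shares stand beside the counts of each list below. The lists were chosen with earlier results of these data known. The median log2 fold change of the 23 was 0.23, against -0.0056 over all tested genes.

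In the supply of activated sugars, 2 of 7 genes rose and 1 fell. *GFPT2*, an isoform of the enzyme that commits glucose to hexosamines, was at 2.92, 3.57 and 5.03 CPM in siNT and at 10.0, 13.5 and 15.5 CPM in siLTBP2. The groups were well apart, and the log2 fold change was 1.76 (SE 0.22, adjusted p = 4.1e-04). Its relative *GFPT1*, far more abundant at 203 ± 11.3 CPM in siNT (SD, n = 3), had a log2 fold change of 0.08 (adjusted p = 0.59). *UAP1*, which makes UDP-*N*-acetylglucosamine, rose from 66.0 ± 6.64 to 110 ± 29.6 CPM (SD, n = 3, log2 fold change 0.74, adjusted p = 0.0098), with siLTBP2 replicate 3 the highest at 144 CPM, as for *HAS2*. Without siNT replicate 2 the adjusted p of *UAP1* was 0.055. *UGDH*, which makes UDP-glucuronic acid, the other sugar donor, fell from 284 ± 5.14 to 207 ± 16.3 CPM (SD, n = 3), with a log2 fold change of -0.46 (adjusted p = 0.0050), and was the most abundant of the list per kilobase. *UGDH-AS1* shares 513 exon bases with it on the other strand.

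Both tested receptors other than *CD44* rose. *LAYN*, encoding the receptor layilin, had 72.4, 75.1 and 70.8 CPM in siNT and 95.1, 92.6 and 92.1 CPM in siLTBP2, a log2 fold change of 0.36 (SE 0.08, adjusted p = 0.0082). *HMMR*, whose product RHAMM binds hyaluronan and also works at the mitotic spindle, had 41.6, 80.1 and 52.8 CPM in siNT and 84.8, 93.8 and 88.2 CPM in siLTBP2. The siNT libraries were widely spread, and the log2 fold change of 0.61 (SE 0.19) passed narrowly, with an adjusted p of 0.044. *HMMR* did not pass in 7 of 15 alternatives, with adjusted p values of up to 0.125. Among them were the fits without siNT replicate 1 (log2 fold change 0.42) or siNT replicate 3 (0.55) and without siLTBP2 replicate 1 (0.65) or 2 (0.57). Of the 6 proliferation genes 5 rose too, against 9.76% of all tested genes. Whether this bears on the rise of *HMMR* was not tested. *LYVE1*, *STAB1* and *STAB2*, receptors of lymphatic and sinusoidal endothelium, were too low to be tested.

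Of the partners of TSG-6, *PTX3*, a pentraxin that binds heavy chains in the hyaluronan matrix, had 95.2, 102 and 83.7 CPM in siNT and 196, 169 and 135 CPM in siLTBP2. It rose 1.78-fold, with a log2 fold change of 0.83 (SE 0.13, adjusted p = 0.0018). The heavy chain genes *ITIH1*, *ITIH2*, *ITIH3*, *ITIH4* and *ITIH5* were too low to be tested. *AMBP*, which encodes the bikunin chain of the same complex, was low and went from 2.02 ± 0.27 to 0.936 ± 0.151 CPM (SD, n = 3), a log2 fold change of -1.11 (SE 0.22, adjusted p = 0.0057). It still fell but was no longer deregulated without siNT replicate 1, 2 or 3 or siLTBP2 replicate 2 or 3, with adjusted p values of 0.011 to 0.023. Among the proteoglycans that bind hyaluronan and their link proteins, only *VCAN* and *HAPLN3* of 8 genes were tested and neither passed. *VCAN*, encoding versican, was at 568 ± 116 and 480 ± 84.6 CPM (SD, n = 3), with a log2 fold change of -0.24 (SE 0.16, adjusted p = 0.33). *VCAN* passed only in the fits with the replicate block.

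**Figure D3:**
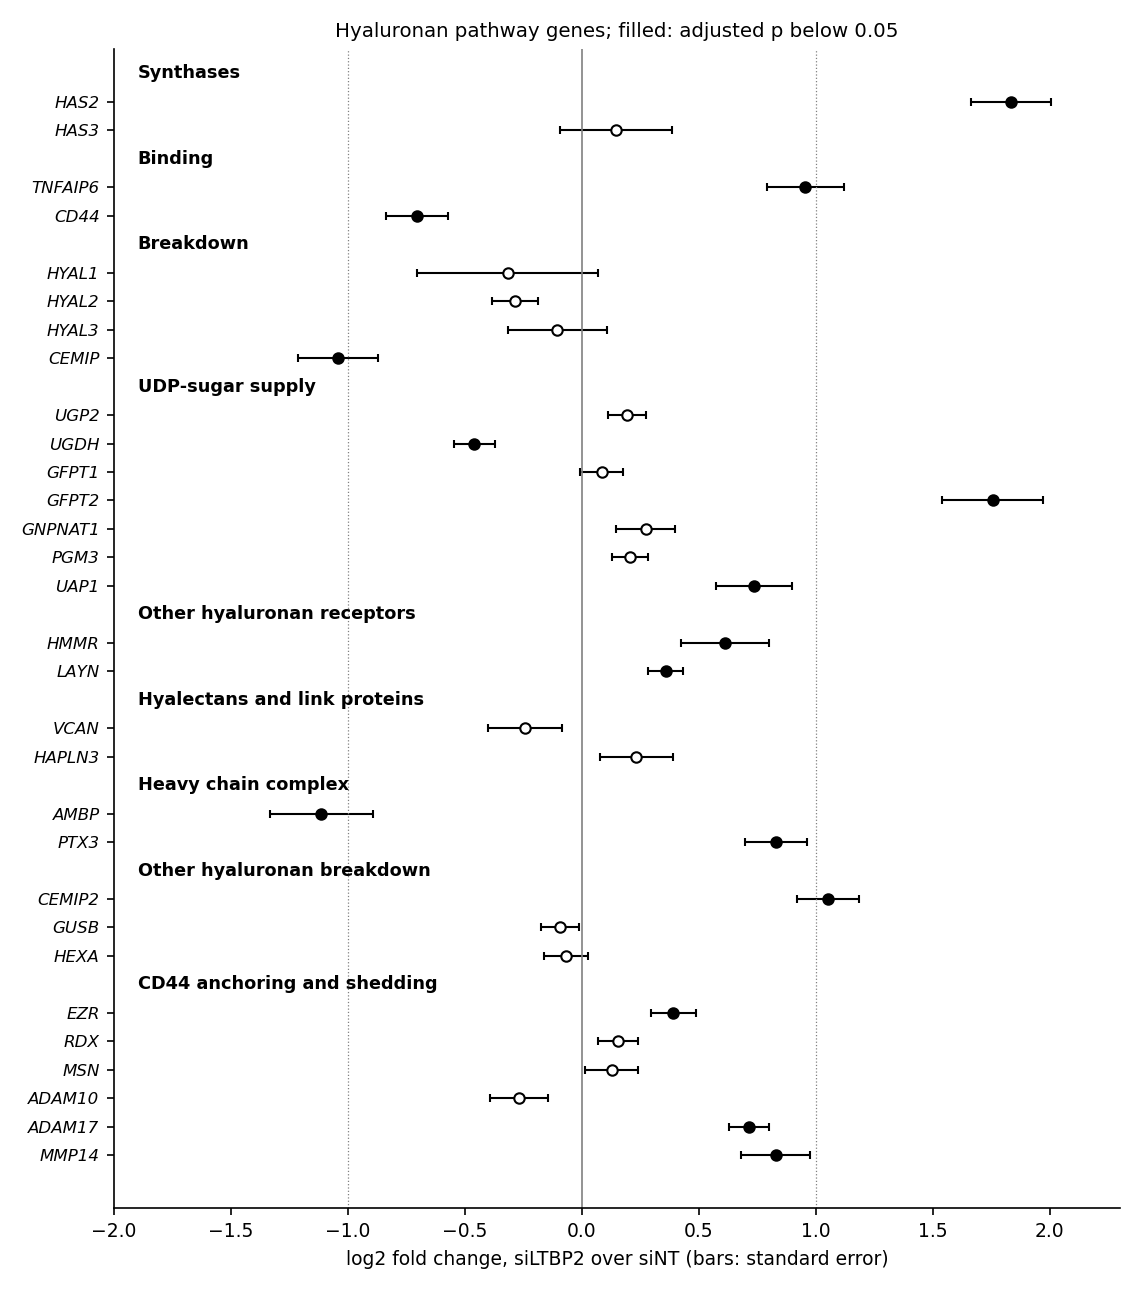
Log2 fold change of siLTBP2 over siNT (x axis) for the 8 tested members and the tested genes of the pathway lists that are reported here, grouped by role, with bars for 1 standard error. Filled points have an adjusted p below 0.05 and dotted lines mark 2-fold. *HAS2*, *GFPT2* and *CEMIP2* lie furthest right and *CEMIP* and *AMBP* furthest left.

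Breakdown genes outside the member list included *CEMIP2*, a transmembrane relative of *CEMIP* that has also been linked to hyaluronan degradation. It had 101, 79.8 and 108 CPM in siNT and 218, 169 and 214 CPM in siLTBP2, all siLTBP2 libraries lying above. It rose 2.07-fold, with a log2 fold change of 1.05 (SE 0.13, adjusted p = 4.8e-04), while *CEMIP* fell 2.06-fold. Without siNT replicate 2 (0.93) or siLTBP2 replicate 1 (0.99) the rise of *CEMIP2* was slightly under 2-fold. The ratio of *CEMIP* to *CEMIP2* per kilobase was 8.67, 8.44 and 6.14 in siNT and 2.08, 2.03 and 1.32 in siLTBP2, so that *CEMIP* remained the higher of the pair in each library. Among genes of the lysosomal steps, *HEXA* and *GUSB* had log2 fold changes of -0.07 and -0.09 (adjusted p = 0.67 and 0.48). *SPAM1*, the hyaluronidase gene of the testis, and *HYAL4* had no reads.

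**Figure D4:**
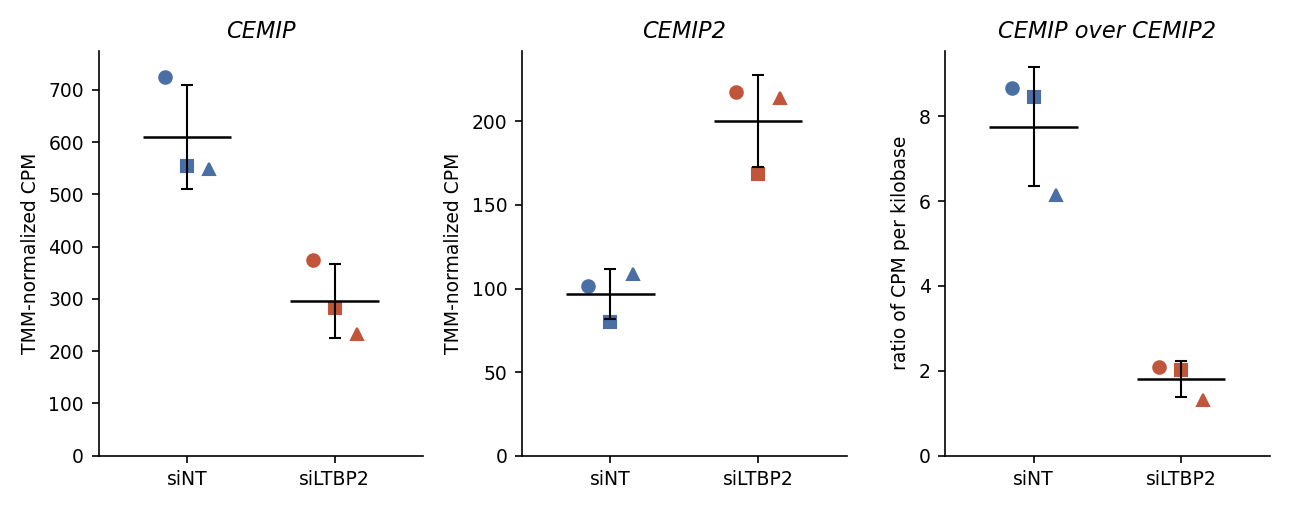
TMM-normalized CPM of *CEMIP* and *CEMIP2* and the ratio of their levels per kilobase, in 3 siNT (blue) and 3 siLTBP2 (red) libraries, with means and 1 SD. *CEMIP* is lower and *CEMIP2* higher in all siLTBP2 libraries, and the ratio drops from between 6.14 and 8.67 to between 1.32 and 2.08.

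CD44 is tied to the cytoskeleton by ezrin, radixin and moesin and is cut from the surface by metalloproteases. Of these 6 genes 3 rose. *MMP14*, the most abundant of the list per kilobase, had 452, 325 and 504 CPM in siNT and 783, 705 and 786 CPM in siLTBP2, a log2 fold change of 0.83 (SE 0.15, adjusted p = 0.0032). *ADAM17* rose from 76.1 ± 4.14 to 125 ± 7.72 CPM (SD, n = 3, log2 fold change 0.71, adjusted p = 3.4e-04), and shares 1645 exon bases, 10.3% of its length, with *IAH1* on the other strand. *EZR* rose with a log2 fold change of 0.39 (adjusted p = 0.017), a call lost without siNT replicate 2 (0.31) or siLTBP2 replicate 1 (0.37). *ADAM10*, *MSN* and *RDX* did not pass, with log2 fold changes of -0.27, 0.13 and 0.15. Only in the fits with the replicate block did *ADAM10* pass.

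The 3′ UTRs of the 9 members were searched for the 7-base word GCACCCA on the sense strand, a word chosen because its carriers had already been seen to be lower as a group in these libraries. Of 12278 tested coding genes with a 3′ UTR, 11.8% carried it. Their median log2 fold change was -0.155, and that of the genes without it 0.019. Among the members only *CEMIP* carried it, in 1 copy, and *CD44*, which also fell, did not. *LTBP2* itself carries 1 copy in its 3′ UTR. Both sites are shown with 10 bases on either side and the word in capitals, *CEMIP* from chr15:80950907-80950933 on the plus strand and *LTBP2* from chr14:74500045-74500071 on the minus strand of GRCh38.

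CEMIP: ccacccaactGCACCCAtgagactcgg

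LTBP2: atgggatacaGCACCCAtctacaaaga

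Whether the *CEMIP* site takes part in its change was not tested. The other pathway genes that fell, *UGDH* and *AMBP*, had no copy in the 3′ UTR, and among the tested pathway genes *HEXA* and *MSN* carried 1 copy each.

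**Figure D5:**
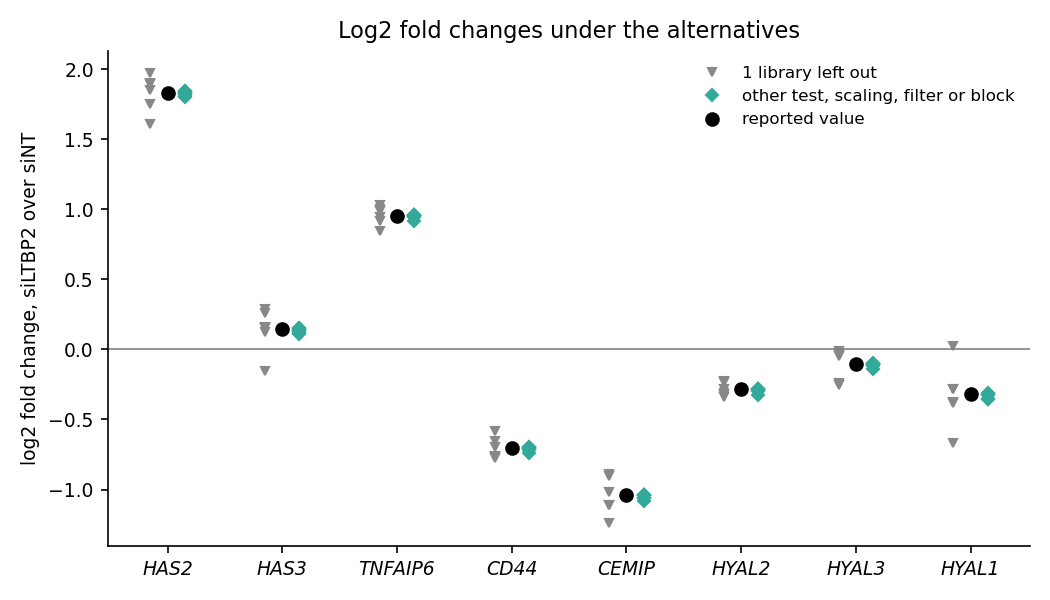
Log2 fold change of siLTBP2 over siNT (y axis) of the 8 tested members: the reported value (black circle), the values with 1 library left out (grey triangles) and those under another test, scaling, filter or the replicate block (green diamonds). *HAS2*, *TNFAIP6*, *CD44* and *CEMIP* keep their side of 0 throughout, and *HAS3* and *HYAL1* cross it when siLTBP2 replicate 3 is left out.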

How the data were processed

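Total RNA of CCD18Co cells was sequenced in 6 stranded, ribosomal RNA-depleted libraries, 3 per group. Per the labels and the study's methods, the authors aligned reads to GRCh38 with STAR 2.7.1a and counted them per gene with HTSeq 0.11.2. The deposited values are raw counts. Neither strand setting nor annotation release was found in the sources used here, so reads in shared exons may have been assigned to either gene or dropped. Totals ran from 44663424 to 53576899 counts, and 3 counts were worth at most 0.0688 CPM. No columns of other samples were present.

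Counts were analysed in R 4.3.3 with edgeR 4.0.16: filterByExpr, TMM factors, glmQLFit and glmQLFTest without a block, two-sided, with Benjamini-Hochberg adjustment over 16920 genes. SE was derived from the fit as |log2 fold change| over the root of F. The code was tested on simulated counts. CPM values use TMM-scaled library sizes. Exon lengths and overlaps came from GENCODE 44, which holds 60462 of the 60663 identifiers and is not necessarily the annotation of the authors. Alternatives were the likelihood ratio test used in the study, DESeq2 1.42.0, other scalings, filters and thresholds, the replicate number as a block, and leaving out each library.

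The members and the gene lists were chosen with earlier results of these data known. The text names *LTBP2*, all members, genes overlapping a member and, of each list, the genes that passed and the most abundant per kilobase. *GFPT1*, *HEXA*, *GUSB*, *HAPLN3*, *ADAM10*, *MSN*, *RDX* and the undetected or barely detected genes were named beyond that rule, with their values seen. 1 tested gene of the lists enters the counts but is not reported here.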

Additional observations from a re-analysis of the deposited data

How the results depend on the processing

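*HAS2*, *TNFAIP6*, *CD44*, *CEMIP* and *LTBP2* kept their direction and passed the adjusted p of 0.05 under all 15 alternatives. The number of members that changed was 4 or 5 throughout, and the fifth was *HYAL2*, which passed with total counts as the scaling (log2 fold change -0.323, adjusted p = 0.0497), with a filter of 1 CPM in 3 libraries (-0.287, adjusted p = 0.0498), with the replicate block (-0.286, adjusted p = 0.0066) and with the block and the likelihood ratio test (-0.286, adjusted p = 0.0041). With 1 library left out at a time, the log2 fold change ranged from 1.61 to 1.97 for *HAS2*, 0.847 to 1.03 for *TNFAIP6*, -0.773 to -0.585 for *CD44*, -1.24 to -0.892 for *CEMIP*, -0.339 to -0.227 for *HYAL2*, -0.255 to -0.0149 for *HYAL3* and -1.89 to -1.61 for *LTBP2*. Without siLTBP2 replicate 3 the sign changed for *HAS3* (-0.152, leave-one-out range -0.152 to 0.286) and *HYAL1* (0.0209, range -0.669 to 0.0209), neither of which passed the test in any fit, and the cause was not tested. The number of deregulated members, 2 in the reported fit, was 1 to 3 with 1 library left out, and 4 at an adjusted p below 0.05 with a fold above 1.5, where the thresholds themselves are wider. Over all genes, 434 were deregulated in the reported fit, 680 without a low-count filter, 693 with the block and the likelihood ratio test, 636 with the block, 619 with the likelihood ratio test, 484 with DESeq2 and 308 to 405 with 1 library left out. Of the pathway genes 10 to 13 changed, and 17 with the block under either test. Those that changed only with the block were *UGP2*, *GNPNAT1*, *PGM3*, *VCAN* and *ADAM10*. Scaling by total counts shifted the median log2 fold change of all genes to -0.0438 and the share of higher genes among the deregulated from 50.5% to 45.4%. The replicate numbers were not taken to pair the libraries, because deviations from the group means gave correlations of 0.30, 0.083 and 0.43 within the numbers 1, 2 and 3, and not all of these are above 0.1. Between different numbers the correlations were from -0.39 to 0.10, and each library except siNT replicate 2 correlated best with its own number. This is a hint from the data. The library names alternate between siNT and siLTBP2 within each number, but the labels state no pairing. Low counts limit *HAS1*, *HAS3*, *HYAL1* and *HYAL3*, and counting intervals cover counting error only.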
